A study of Rattus norvegicus with 6 samples.

Results

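Retinoic acid synthesis, binding and reception were followed through 9 genes in glomerular isolates of male Sprague-Dawley rats. The genes are Aldh1a1, Aldh1a2, Aldh1a3, Rdh10, Dhrs3, Rbp4, Crabp2, Rara and Rarb. A gene was taken from the probesets annotated with exactly 1 gene symbol, and stood for by the one with the highest mean over the 6 arrays. This gave 8 of the 9 genes, among 14506 genes represented in the same way on 29215 probesets. Rarb, a retinoic acid receptor, was not matched to such a probeset and is not analysed here. Each of the 8 genes had a single probeset with 1 symbol. The study asked which genes set apart parietal epithelial cells (PECs), the cells that line Bowman's capsule.

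Total RNA of glomeruli isolated by sieving of the renal cortex, without culture, was hybridized to Affymetrix rat whole-transcript arrays. There were 3 arrays of PEC-enriched isolates (rich in glomeruli still in their capsule, held back by a 90 µm sieve). Another 3 were of PEC-deprived isolates (mostly glomeruli without capsule, from a 75 µm sieve). By the study's counts, the 90 µm preparations also held glomeruli without capsule and tubule fragments. Those at 75 µm held few or no capsulated glomeruli, and their share of tubules varied. Which preparation went on which array is not given in the sources used here. All animals were untreated, and each preparation came from an individual rat. The isolations are described with 3 animals against 6 arrays, and it is not stated whether 1 rat gave both kinds of isolate. Values are log2 expression, normalized by RMA (robust multi-array average) by the authors. Changes are log2 fold changes, PEC-enriched minus PEC-deprived, from limma, with p-values adjusted over all 29215 probesets and a threshold of 0.01.

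Sieved glomeruli carry other cells of the cortex, and their markers were read first. Podocyte markers were high in both isolates, with Podxl (podocalyxin) between 13.00 and 13.24 on every array, and of the 8 measured 4 had higher and 4 lower means in PEC-enriched isolates. Markers of PECs, proximal tubule, thick ascending limb, and distal tubule and collecting duct had higher means in PEC-enriched isolates in 13 of 13, 12 of 12, 6 of 6 and 10 of 10 genes. The PEC list is not exclusive to PECs. Wt1 is on it and on the podocyte list, and the study stained the proteins of Cdh6 and Pax8, both on it, in tubules as well as in PECs. Markers of glomerular endothelium and of leukocytes had lower means in 8 of 8 and 6 of 6. Of the 6 measured markers of mesangium and vessel wall 3 had higher and 3 lower means. Among these, named after their values were seen, the smooth muscle genes Myh11 (0.83), Tagln (0.72) and Acta2 (0.22) were higher and Des (-0.34) lower without overlap, as log2 fold changes. No probeset passed the threshold in limma (0 of 29215, smallest adjusted p = 0.152), while 3048 had an unadjusted p under 0.05. PEC-deprived replicate 1 lay nearest to the PEC-enriched arrays in both PEC and tubule markers. In whole isolates, more cells of a type and more RNA per cell cannot be told apart.

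Retinoic acid is made from vitamin A in successive oxidations. Retinol travels in blood on retinol binding protein 4, is oxidized to retinaldehyde by dehydrogenases such as RDH10, and retinaldehyde is oxidized irreversibly to retinoic acid by the ALDH1A enzymes. DHRS3 reduces retinaldehyde back to retinol, and CYP26 enzymes clear retinoic acid. CRABP2 carries retinoic acid to the nucleus, where retinoic acid receptors (RARs) paired with retinoid X receptors (RXRs) bind direct repeats in DNA and switch target genes. In the developing kidney this signal governs branching of the ureteric bud.

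PEC-enriched isolates had the higher mean in 4 of the 8 measured genes and the lower in the other 4. The higher means included Aldh1a1, at 3.76-fold, Aldh1a2, at 1.90-fold, and Rdh10, at 1.34-fold, which make retinoic acid and its precursor. In each of these 3 genes the lowest PEC-enriched array was above the highest PEC-deprived one. Rara, the receptor, lay 1.23-fold lower in PEC-enriched isolates, again without overlap. The groups overlapped for Aldh1a3, Dhrs3, Rbp4 and Crabp2. Over all genes 9.68% were higher without overlap and 9% lower without overlap, or 18.7% together, against 4 of these 8. In limma none of the 8 passed the threshold (0%, or 0 of 14506 genes), and 4 of the 8 had an unadjusted p under 0.05, against 13.6% of all genes. The genes were picked with results of these arrays known. Aldh1a1 and Aldh1a2 are on the study's own list of differentially expressed genes, so these shares are not independent evidence. For Aldh1a1 the study also reports qPCR on the same RNA samples and expression in cultured mouse PECs. It stained the protein in PECs, and in proximal tubules and collecting duct as well.

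**Figure D1:**
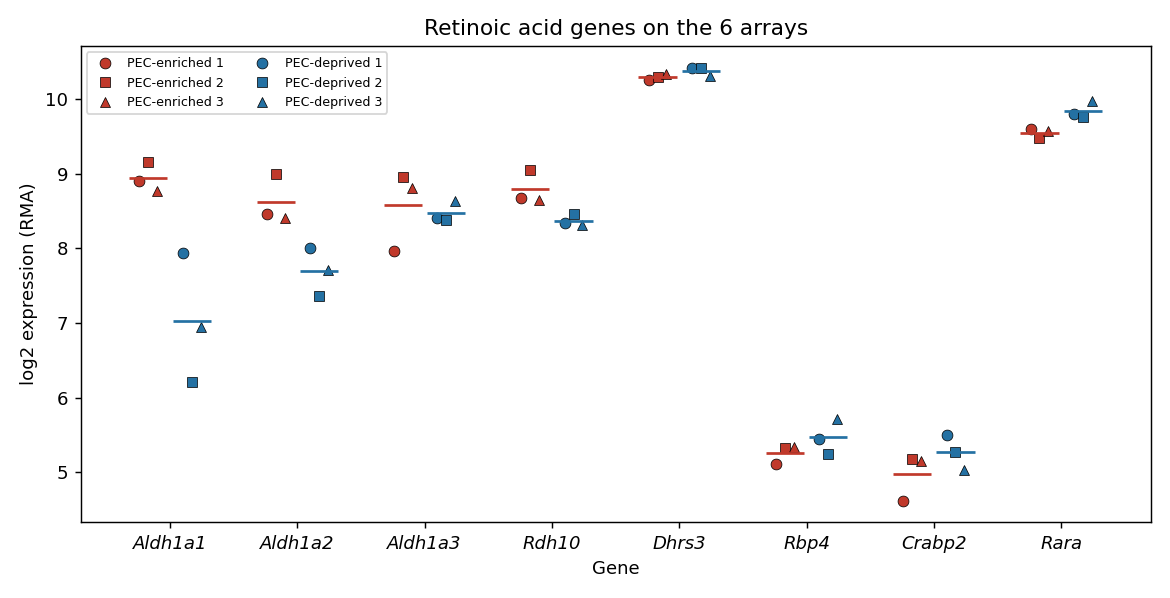
RMA log2 expression (y axis) of the 8 measured genes (x axis), each point 1 array, red for PEC-enriched and blue for PEC-deprived isolates, with the replicate number as the shape and a line at the mean of 3 arrays. The red and blue points separate fully for Aldh1a1, Aldh1a2, Rdh10 and Rara. Heights of different genes come from different probesets and are not to be compared.

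Aldh1a1, a cytosolic enzyme that oxidizes retinaldehyde, had log2 values of 8.90, 9.16 and 8.77 in PEC-enriched replicates 1, 2 and 3, and of 7.94, 6.21 and 6.94 in PEC-deprived replicates 1, 2 and 3. The PEC-enriched arrays were close together and the PEC-deprived arrays spread widely, with replicate 1 the highest of them. The means were 8.94 ± 0.195 and 7.03 ± 0.868 (SD, n = 3 arrays each). The log2 fold change was 1.91 (standard error, SE, 0.37, 95% interval 1.06 to 2.76, limma adjusted p = 0.166), which placed Aldh1a1 10th from the top among 14506 genes. Without PEC-deprived replicate 1 it was 2.36 (limma adjusted p = 0.0246). The probeset carries 2 RefSeq accessions, of which 1 belongs to the current Aldh1a1 entry and the other to no current entry.

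Aldh1a2, the main retinoic acid synthesizing enzyme of the early embryo, had log2 values of 8.46, 8.997 and 8.40 in the PEC-enriched and 8.01, 7.37 and 7.72 in the PEC-deprived arrays. The spread was alike in both groups, and replicate 2 was the highest PEC-enriched and the lowest PEC-deprived array, as it was for Aldh1a1. The means were 8.62 ± 0.327 and 7.70 ± 0.321 (SD, n = 3 arrays each). The log2 fold change was 0.92 (standard error 0.203, 95% interval 0.46 to 1.39, limma adjusted p = 0.191), and 1.19% of all genes had a higher one.

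A regularised test, which combines the variance of each group with that of probesets nearest in level, is 1 reading of the Bayesian test named in the methods. On simulated data at a prior weight of 10 it made false calls far more often than its threshold allows. There limma stayed close to the threshold, but found fewer of the differences put in. By these rates an adjusted p under 0.01 from the regularised test is not a reliable call. Each probeset's observed SD served as its true SD there, so the rates may not carry over to the real arrays. At a prior weight of 10 both enzymes passed the regularised test, with an adjusted p = 0.000153 for Aldh1a1 and 0.0043 for Aldh1a2. They were the only members past the threshold in that test (2 of 8, both higher in PEC-enriched isolates, against 1.65% of all genes, or 1.41% that were higher). At a prior weight of 6 the adjusted p was 0.0119 for Aldh1a1 and 0.0412 for Aldh1a2, and at a prior weight of 3 it was 0.337 and 0.401. With a prior taken from the mean variance in place of the mean standard deviation, Aldh1a1 passed (adjusted p = 0.000697) and Aldh1a2 did not (0.0267). The call for both enzymes thus rests on the form and the weight of the prior. Over all probesets the regularised test called 334 at a prior weight of 10, 32 at 6, 0 at 3 and 119 with the mean variance prior. The study reports as many differentially expressed probesets as the highest of these counts. Its prior is not given in the sources used here, and whether it was the same was not tested.

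Aldh1a3, the remaining enzyme of the family, did not separate the isolates. It had log2 values of 7.97, 8.96 and 8.81 in the PEC-enriched and 8.41, 8.38 and 8.63 in the PEC-deprived arrays. PEC-enriched replicate 1 was the lowest of all arrays, and the other two PEC-enriched arrays were the highest. Its log2 fold change was 0.11 (standard error 0.239, 95% interval -0.44 to 0.65, limma adjusted p = 0.943). Without PEC-enriched replicate 1 it was 0.41, without replicate 2 it was -0.086 and without replicate 3 it was -0.0093, so that its sign depended on single arrays. Podocyte markers were also lowest on PEC-enriched replicate 1, at a mean of -0.26 relative to all arrays, against 0.12 and 0.15 on replicates 2 and 3. From high to low they ran 3, 2, 1 in both groups, while Aldh1a3 ran 2, 3, 1 and 3, 1, 2. The part of podocyte RNA in the values of Aldh1a3 was not tested.

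The 3 enzymes were set against each other by their within-array differences, each gene centred on its mean. The log2 fold change of Aldh1a1 exceeded that of Aldh1a2 by 0.99 and that of Aldh1a3 by 1.80, and in both pairs the groups of arrays did not overlap. Aldh1a2 exceeded Aldh1a3 by 0.82, with overlap. Among 4 such pairs the exact permutation test (two-sided) gave p = 0.1 for the first pair and for the second, the smallest p that 3 arrays against 3 allow, and 0.2 for Aldh1a2 against Aldh1a3. Adjusted over the 4 pairs these were 0.133, 0.133 and 0.2. The design cannot bring any of these differences under 0.05.

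The sequences upstream of Aldh1a1 and Aldh1a2 are shown because these genes had the highest log2 fold changes of the set, and because both hold the octamer ATGCAAAT, printed in capitals, on the strand of the gene. The octamer is known as a binding sequence of POU domain factors. It lies 72 to 65 bases before the start of Aldh1a1 and 133 to 126 bases before the start of Aldh1a2. These are the 250 bases before each gene's start in RefSeq (GRCr8, plus strand), at chr1:227537370-227537619 for Aldh1a1 and chr8:80758391-80758640 for Aldh1a2.
Aldh1a1: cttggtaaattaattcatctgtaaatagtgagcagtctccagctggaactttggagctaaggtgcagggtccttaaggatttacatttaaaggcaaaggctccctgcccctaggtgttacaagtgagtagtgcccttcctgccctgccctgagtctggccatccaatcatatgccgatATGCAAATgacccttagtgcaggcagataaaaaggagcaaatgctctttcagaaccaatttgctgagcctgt
Aldh1a2: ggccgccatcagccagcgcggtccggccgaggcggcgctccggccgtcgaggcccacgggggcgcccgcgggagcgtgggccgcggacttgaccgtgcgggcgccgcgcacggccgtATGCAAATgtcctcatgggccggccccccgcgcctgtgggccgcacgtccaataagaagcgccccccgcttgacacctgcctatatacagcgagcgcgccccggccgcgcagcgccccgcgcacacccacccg
Searched on both strands, ATGCAAAT was found in 1.78% of 33469 promoters of the same length (250 bases before to 50 after the start). Promoters were given for 8 of the 9 genes, Rdh10 being the exception, and no other of these 8 held it. Among 54 promoters of the wider retinoid and target lists described later it was found in 3, the other being that of Aldh8a1, a further aldehyde dehydrogenase that was not matched to a probeset. The octamer was noticed after the values were known, and a match describes letters, not binding.

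Retinol dehydrogenase 10, encoded by Rdh10, catalyses the first oxidation, of retinol to retinaldehyde. Its log2 values were 8.68, 9.05 and 8.65 in the PEC-enriched and 8.34, 8.46 and 8.31 in the PEC-deprived arrays. The lowest PEC-enriched array lay just above the highest PEC-deprived array. The means were 8.79 ± 0.226 and 8.37 ± 0.0793 (SD, n = 3 arrays each), with a log2 fold change of 0.42 (standard error 0.127, 95% interval 0.13 to 0.71, limma adjusted p = 0.305). Without PEC-enriched replicate 2, its highest array, the log2 fold change was 0.29.

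Dhrs3 encodes the reductase that opposes RDH10, and retinoic acid is known to induce it. Its log2 values of 10.25, 10.30 and 10.34 in the PEC-enriched arrays and 10.41, 10.42 and 10.31 in the PEC-deprived arrays lay within a narrow range and overlapped. Its log2 fold change was -0.09 (standard error 0.0866, 95% interval -0.29 to 0.11, limma adjusted p = 0.834). Rdh10 had a log2 fold change that exceeded that of Dhrs3 by 0.51, without overlap of the within-array differences (exact permutation test, two-sided, p = 0.1, adjusted over the 4 pairs 0.133).

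Rbp4, the serum carrier of retinol, and Crabp2, the carrier of retinoic acid in the cell, had low values. Rbp4 stood at 5.12, 5.32 and 5.34 in the PEC-enriched and 5.44, 5.24 and 5.72 in the PEC-deprived arrays. Its log2 fold change was -0.21 (standard error 0.136, 95% interval -0.52 to 0.11, limma adjusted p = 0.71). Crabp2 stood at 4.62, 5.18 and 5.15 and at 5.51, 5.27 and 5.03. Its log2 fold change was -0.29 (standard error 0.179, 95% interval -0.70 to 0.12, limma adjusted p = 0.687), and -0.11 without PEC-enriched replicate 1, its lowest array. Both genes overlapped between the groups. Their means over the 6 arrays lie at the 26.2 and 22.7 percentiles of all probesets, and with no detection calls used here it is unknown how far they stand above background.

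Rara encodes retinoic acid receptor alpha. Its log2 values were 9.60, 9.47 and 9.57 in the PEC-enriched and 9.80, 9.76 and 9.98 in the PEC-deprived arrays, so that every PEC-enriched array was lower. The means were 9.55 ± 0.0664 and 9.85 ± 0.116 (SD, n = 3 arrays each). The log2 fold change of -0.30 (standard error 0.0975, 95% interval -0.52 to -0.07, limma adjusted p = 0.337) was the lowest among the members and placed Rara 807th from the bottom among 14506 genes. Without PEC-deprived replicate 3, the highest array, it was -0.23.

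The order of arrays within a group was compared with that of the marker lists, given as means of gene-centred log2 values. Aldh1a1 and Aldh1a2 ranked the PEC-enriched arrays 2, 1, 3 and the PEC-deprived arrays 1, 3, 2 from high to low. The 12 proximal tubule markers had the same orders, with 0.92, 0.32 and 0.16 and then 0.15, -0.50 and -1.06. The 13 PEC markers ranked the PEC-enriched arrays 2, 3, 1 and the PEC-deprived arrays 1, 3, 2, from 0.71 down to 0.20 and from -0.17 down to -0.71. The 6 markers of the thick ascending limb ranged from 0.81 to 1.31 on PEC-enriched and from -1.52 to -0.25 on PEC-deprived arrays, in the orders 1, 2, 3 and 1, 3, 2. Markers of distal tubule and collecting duct ran 1, 3, 2 and 1, 2, 3. Rdh10 ran 2, 1, 3 in both groups, unlike proximal tubule markers on the PEC-deprived arrays. With 3 arrays a group, a match of orders is weak evidence, and some of the PEC markers are also found in tubules. The parts of PECs and of tubule cells in the higher means of Aldh1a1, Aldh1a2 and Rdh10 were not tested. Rara ran the other way, as did endothelial markers, which ranged from -0.46 to 0.10 on PEC-enriched and from 0.18 to 0.28 on PEC-deprived arrays. The 6 leukocyte markers, from -0.55 to 0.19 and from 0.07 to 0.27, had the array order of Rara in both groups (1, 3, 2 and 3, 1, 2), while endothelial markers had it on the PEC-enriched arrays and ran 3, 2, 1 on the PEC-deprived ones. The parts of endothelial and leukocyte RNA in the lower mean of Rara were not tested.

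**Figure D2:**
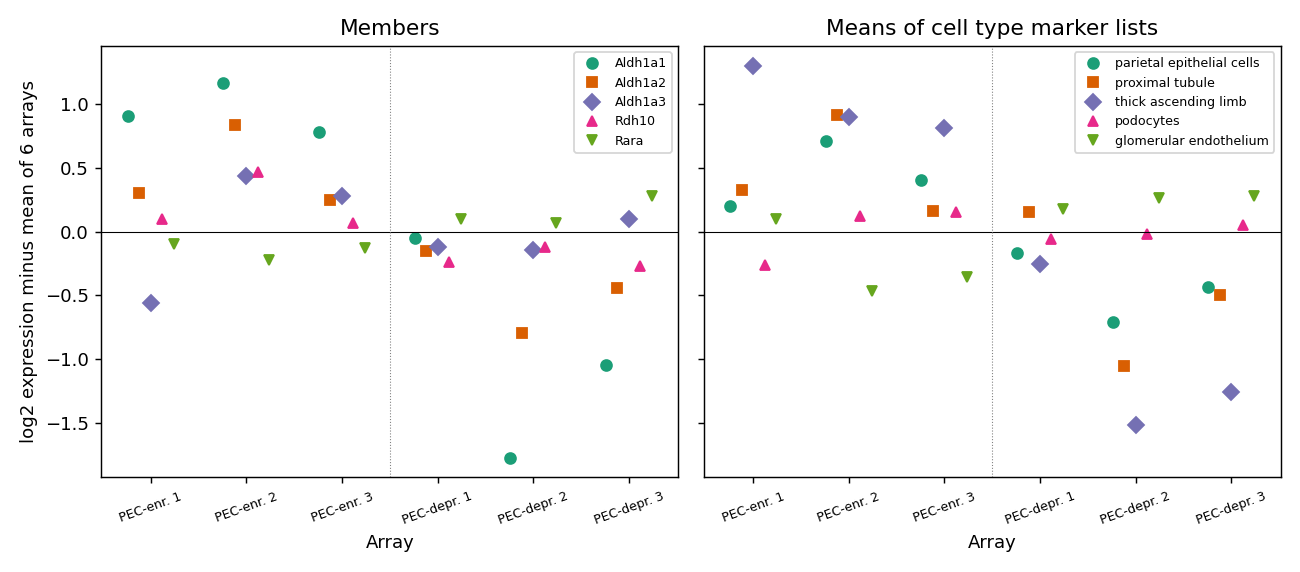
Gene-centred log2 expression (y axis) on each of the 6 arrays (x axis), for 5 of the genes (left) and for the means of 5 cell type marker lists (right), each symbol 1 gene or list as named in the key. Aldh1a1 falls to -1.77 on PEC-deprived replicate 2, where proximal tubule markers stand at -1.06, while Aldh1a3 is lowest on PEC-enriched replicate 1.

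Over all genes outside the lists, those with the pattern nearest to Aldh1a1 were Plau, Cdkl1 and Cdh16, with root mean square differences of 0.132, 0.233 and 0.242 between gene-centred log2 values over the 6 arrays. Plau encodes urokinase, Cdkl1 a kinase and Cdh16 kidney-specific cadherin. Their log2 fold changes were 1.77, 1.67 and 2.01. Nearest to Rara were Dipk1b, Ssbp4 and Zbtb7a, at differences of 0.0213, 0.0285 and 0.0341. For Aldh1a3, looked up after its values were seen, the nearest were Crb2, Flrt1 and Pxylp1, at 0.0787, 0.0864 and 0.0997. Crb2, a polarity gene of podocytes, had its lowest value on PEC-enriched replicate 1 as well (8.80), as did Flrt1 (7.72) and Pxylp1 (8.72). This follows from picking the genes nearest in pattern and is not separate evidence.

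Around these genes a wider list of 60 retinoid genes was set up by role, of which 46 were measured, the 8 members included. Their median log2 fold change was -0.01, beside -0.02 over all genes, with 21 of the 46 means higher and 25 lower in PEC-enriched isolates. At an unadjusted p under 0.05 in limma there were 10 higher genes (7.96% of all genes) and 5 lower ones (5.65% of all genes), and none of the 46 passed the threshold (0%).

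**Figure D3:**
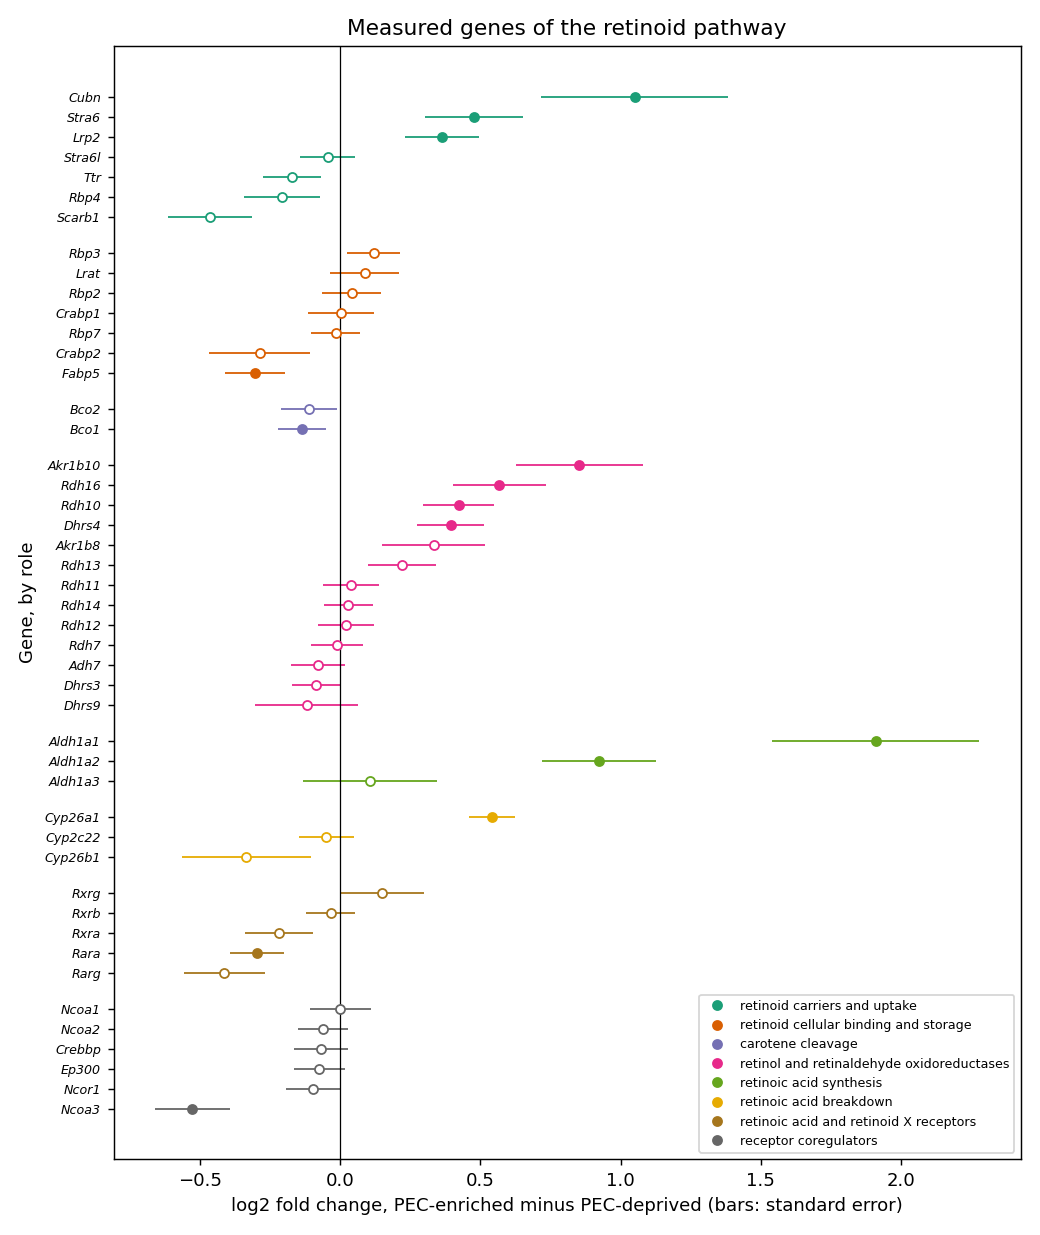
Log2 fold changes (x axis, PEC-enriched minus PEC-deprived) of the 46 measured retinoid genes (y axis), coloured by role, with bars for the standard error and filled points where the 3 PEC-enriched arrays and the 3 PEC-deprived arrays did not overlap. Aldh1a1 stands farthest right at 1.91, and 4 of the 5 receptors and all 6 coregulators lie left of 0, Ncoa1 at 0.00.

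Breakdown of retinoic acid was measured by 3 genes. Cyp26a1, a cytochrome P450 that hydroxylates retinoic acid and is one of its best known targets, had log2 values of 6.86, 6.88 and 6.91 in the PEC-enriched and 6.30, 6.36 and 6.36 in the PEC-deprived arrays. The arrays of each group were very close, and the groups were apart. The means were 6.88 ± 0.0254 and 6.34 ± 0.0346 (SD, n = 3 arrays each), with a log2 fold change of 0.54 (SE 0.0829, limma adjusted p = 0.152). Its adjusted p was 0.0283 in the regularised test at a prior weight of 10. Leaving out single arrays moved the log2 fold change only between 0.52 and 0.55. Cyp26b1, the related enzyme, overlapped, with 7.69, 8.30 and 7.93 against 8.81, 8.07 and 8.05 and a log2 fold change of -0.33 (limma adjusted p = 0.727).

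The sequence before Cyp26a1 is shown because it is the breakdown gene that separated the isolates and because it holds the motif that RAR and RXR bind, the direct repeat of the half-site with 5 bases between (DR5). The repeat, in capitals, lies on the opposite strand, 92 to 76 bases before the start (RefSeq, GRCr8, plus strand, chr1:244883572-244883821, the 250 bases before the start).
Cyp26a1: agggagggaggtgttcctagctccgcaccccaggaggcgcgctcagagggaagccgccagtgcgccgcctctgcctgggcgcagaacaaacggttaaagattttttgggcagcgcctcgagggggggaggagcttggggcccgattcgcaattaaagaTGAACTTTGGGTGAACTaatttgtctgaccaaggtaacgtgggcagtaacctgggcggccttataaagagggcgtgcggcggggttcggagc
The same kind of repeat is in the Rarb promoter, 25 to 41 bases after the start given there (chr15:11336416-11336432), shown with its 2 half-sites in capitals.
Rarb: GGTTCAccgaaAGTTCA
Searched on both strands, DR5 was found in 0.382% of the 33469 promoters. Among the 54 promoters of the retinoid and target lists it was found in these 2, and in no other promoter of the 8 members that have one. The half-site AGTTCA, part of both repeats, was found in 14.5% of promoters, and AGGTCA in 16.2%, in none of the 8. No match says only that these letters are not in this window.

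Carriers and uptake comprised 7 genes, 3 with higher and 4 with lower means. Stra6, the cell surface receptor for RBP4, had log2 values of 7.47, 7.42 and 6.97 against 6.96, 6.49 and 6.97, a log2 fold change of 0.48 (limma adjusted p = 0.385) with the lowest PEC-enriched and the highest PEC-deprived array nearly level but no overlap. Lrp2 and Cubn, endocytic receptors of the proximal tubule, had log2 fold changes of 0.36 and 1.05 (limma adjusted p = 0.374 and 0.325). Both are also among the proximal tubule markers used here. Scarb1, a scavenger receptor for lipids and carotenoids, had -0.47 (limma adjusted p = 0.327).

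Among 13 measured oxidoreductases of retinol and retinaldehyde, 9 had higher and 4 lower means. Besides Rdh10, those with an unadjusted p under 0.05 in limma were Akr1b10, an aldo-keto reductase, Rdh16, a retinol dehydrogenase of liver, and Dhrs4, a peroxisomal reductase. Akr1b10 had log2 values of 7.67, 7.74 and 7.18 against 7.09, 6.25 and 6.69 and a log2 fold change of 0.85 (limma adjusted p = 0.252, regularised test adjusted p = 0.00799 at a prior weight of 10, 0.0645 at 6, 0.458 at 3 and 0.030 with the mean variance prior). For Rdh16 the log2 fold change was 0.57 (limma adjusted p = 0.298) and for Dhrs4 0.39 (limma adjusted p = 0.31). In all 3 genes the groups did not overlap.

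Of 7 measured binding and storage genes, Fabp5, which carries retinoic acid to another nuclear receptor, had an unadjusted p under 0.05 in limma. Its log2 fold change was -0.30 (limma adjusted p = 0.365), with 7.13, 6.85 and 7.11 against 7.32, 7.26 and 7.42. Lrat, which esterifies retinol for storage, had 0.09 and Crabp1 0.00. Both carotene cleaving enzymes had log2 fold changes below 0, with Bco1 at -0.14 and Bco2 at -0.11 (limma adjusted p = 0.693 and 0.81).

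Of 5 measured receptors 4 had lower means, with a median log2 fold change of -0.22. Rarg had log2 values of 9.41, 9.04 and 8.91 against 9.40, 9.69 and 9.52 and a log2 fold change of -0.41 (SE 0.144, limma adjusted p = 0.36). Its groups overlapped only through PEC-enriched replicate 1. Of the PEC-enriched arrays, that one had the highest endothelial, leukocyte, mesangium and vessel wall, thick ascending limb, and distal tubule and collecting duct markers. It had the lowest PEC and podocyte markers. A link of Rarg to any of these was not tested. Rxra had -0.22, Rxrb -0.03 and Rxrg 0.15. All 6 measured coregulators had lower means, with log2 fold changes from -0.10 to 0.00 in 5 of them. In the remaining one, Ncoa3, a coactivator of nuclear receptors, the values were 9.87, 9.47 and 9.42 against 10.16, 10.18 and 10.004, without overlap, and the log2 fold change was -0.53 (SE 0.134, limma adjusted p = 0.23).

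Target genes known to respond to retinoic acid in several cell types were listed as a further group. Of 13 measured, 5 had higher means and 8 lower ones, the median log2 fold change was -0.07, and none past the threshold in limma (0%). Besides Cyp26a1 and Stra6, Gprc5a, a receptor first known as a retinoic acid induced gene, had a higher mean at an unadjusted p under 0.05. Its values were 5.87, 6.48 and 6.09 against 5.40, 5.55 and 5.13, with a log2 fold change of 0.79 (SE 0.173, limma adjusted p = 0.191, regularised test adjusted p = 0.00822 at a prior weight of 10, 0.0554 at 6, 0.411 at 3 and 0.0568 with the mean variance prior). Rai14, an actin-associated protein, had -0.28 and Meis2, a homeobox factor, -0.39 (limma adjusted p = 0.45 and 0.466), with overlap in both. The list holds the members Dhrs3, at -0.09, and Crabp2, at -0.29, besides Rarb.

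**Figure D4:**
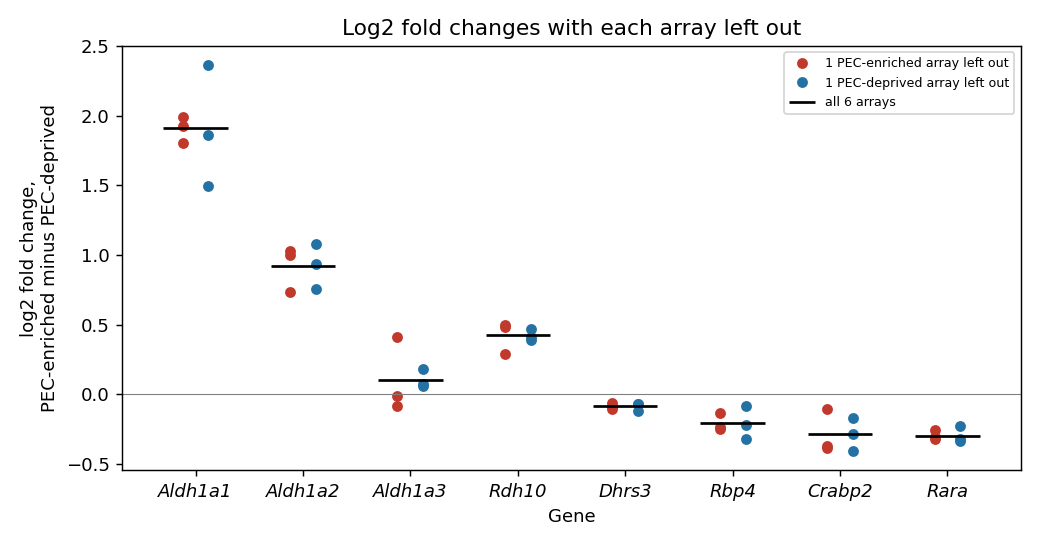
Log2 fold changes (y axis, PEC-enriched minus PEC-deprived) of the 8 measured genes (x axis), with a line for all 6 arrays and a point for each fit that leaves out 1 array, red for a PEC-enriched and blue for a PEC-deprived array. Aldh1a1 runs from 1.499 to 2.36 and Aldh1a2 from 0.74 to 1.08, while Aldh1a3 crosses 0.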

How the data were processed

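Expression was measured on 6 arrays, 3 per isolate. The authors adjusted the background, normalized by quantiles and summarized probesets with RMA, and deposited log2 expression values, 1 per probeset and array. Per the submitters' processing notes the algorithm was RMA, and which software ran it, and on which probeset definition, is not given in the sources used here. For the deposited table no log base is stated. It was read as 2, since RMA writes log2 and the study gives its fold changes as log2. Gene symbols come from a 2016 annotation of the platform and were brought up to date in RefSeq (GRCr8) by Entrez ID. Of 29215 probesets 15310 have 1 symbol, 323 several and 13582 none.

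A two-sided comparison of the isolates was fitted on all probesets by lmFit and eBayes of limma 3.58.1 (R 4.3.3), without covariates, and p-values were adjusted after Benjamini and Hochberg. The regularised test used a window of 101 probesets and 22 degrees of freedom. Both were tested on simulated data, where limma kept close to its threshold and the regularised test at a prior weight of 10 made far more false calls than its threshold allows. The simulated arrays took each probeset's observed SD as its true SD, and few probesets were changed, so the rates may not carry over. Deviations from group means correlated little between same-numbered arrays (-0.0287, 0.0519 and 0.100), and no 2 arrays were identical. With 3 arrays a group, these correlations cannot exclude that isolates were paired by rat. With 3 arrays a group, precision is limited by their number.

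The members and the gene lists were chosen with earlier results of these data known. All members, wider retinoid and target genes with an unadjusted p under 0.05 and the 3 genes nearest in pattern to the highest and the lowest member were named, with other measured pathway genes where useful. Alternatives were the replicate block, an intensity trend, the regularised test, array weights, probesets above the median level or with 1 symbol, median centring, cyclic loess, the mean of a gene's probesets, other thresholds and each array left out. Prior weights of 6 and 3 and a prior from the mean variance were added after the data were seen. Figures were drawn with matplotlib 3.10.9.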

Additional observations from a re-analysis of the deposited data

How the results depend on the processing

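Of 325 log2 fold changes recomputed for the members and the named pathway genes, 319 kept their direction and side of the threshold. Direction could not change with the replicate block, the intensity trend, the regularised test or the probeset filters, which leave the log2 fold change as it was. With a smallest adjusted p of 0.152 in limma, the side of the threshold had little room to change either. The count of 319 is thus no measure of stability. The regularised test at a prior weight of 10, which made too many false calls on simulated data, called 334 probesets, 2 members (Aldh1a1 and Aldh1a2), 3 genes of the wider list (with Akr1b10) and 1 target gene (Gprc5a). At an unadjusted p under 0.05 the counts were 3048, 4, 15 and 5. A prior weight of 6 called 32 probesets and 0 members, one of 3 called 0 probesets, and a prior from the mean variance 119 probesets, 1 member and 1 gene of the wider list, Aldh1a1, these 3 settings being added after the data were seen. With single arrays left out the count over all probesets ran from 0 to 1 (Slc12a1, without PEC-deprived replicate 1), that of the members stayed at 0, and Aldh1a3 ran from -0.086 to 0.41, below 0 without PEC-enriched replicate 2 (-0.086) or 3 (-0.0093). The number of members at an unadjusted p under 0.05 then ran from 3 to 5, and that of the wider list from 10 (without PEC-enriched replicate 2) to 16. The number of members without overlap ran from 4 to 6. Leaving out an array cannot lower that number, so its range says nothing about stability. With the replicate block limma again called 0 probesets (4 members and 16 genes of the wider list at an unadjusted p under 0.05) with every log2 fold change the same by construction, while the target gene Rai14 went from an unadjusted p of 0.0433 to 0.0754. PEC-enriched replicates 2 and 3 correlated best with the PEC-deprived array of their own number, and replicate 1 with PEC-deprived replicate 2. Median centring and cyclic loess shifted the median of all probesets by -0.01 and 0.02. Signal over background is unknown.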
